A study of Mus musculus with 8 samples.

Results

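Single blood stem and progenitor cells that carried the most RNA of late cell cycle genes are described here, within a set of mouse bone marrow cells sorted one per well. In each of 8 plates, the 15% of wells with the highest summed counts of Ube2c, Cdc20, Ccnb1, Ccnb2, Plk1, Nusap1, Cenpf and Aurka per 10000 gene counts were taken. The wells were thus chosen by the measured counts of these 8 genes. This gave 51 wells per plate, 408 of the 2727 wells with at least 1000 gene counts and 500 genes. They are called G2/M wells below and members in the plots, and the other 2319 wells are the remaining wells. All cells came from 1 group with no treatment, LSK cells (lineage-negative, Sca1+ cKit+ marrow) of Dach1-GFP mice aged 8 to 16 weeks. In these mice a biotin tag precedes the stop codon of the endogenous Dach1 gene in exon 12 and an IRES-GFP follows it. The line goes back to a targeted C57BL/6 embryonic stem cell clone, and its neomycin cassette was removed by Flpe recombinase. Marrow was enriched for CD117 (cKit) with magnetic beads and single cells were index-sorted into 384-well plates, so the fluorescence of each cell is known. The sort records of the 4 LCE plates name the sorted gate SK where the titles say LSK, and the labels do not say which animals a plate's cells came from. Each p-value therefore measures the spread between plates, which may be technical. The plates fall into 4 named LC and 4 named LCE, which were sorted with different antibody panels.

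A cell that has copied its DNA passes through G2 into mitosis. Cyclin B with Cdk1 starts mitosis, Plk1 and the aurora kinases build the spindle and mature the centrosomes, and the kinetochore ties each chromosome to spindle fibres. The spindle checkpoint holds Cdc20 back until all chromosomes are attached. The anaphase-promoting complex, with Cdc20 and the ubiquitin-conjugating enzyme Ube2c, then marks cyclin B and securin for destruction, and the cell divides. Many of these genes are switched on together in G2. In adult marrow most long-term stem cells rest outside the cycle, while progenitors further down divide often.

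Sequences just before the start of these genes are shown because a pair of short elements is known from late cell cycle promoters. One is the cell cycle homology region, TTTGAA or TTTAAA, bound by MuvB complexes, and the other is the CCAAT box, bound by NF-Y. The windows are the 120 bases before the RefSeq start on GRCm38.p6, read 5′ to 3′ on the gene's strand, and capitals mark every TTTGAA and every TTTAAA, as well as every CCAAT, on either strand. On the opposite strand TTTGAA reads as TTCAAA and the CCAAT box as ATTGG, while TTTAAA is its own reverse complement. Neighbouring matches may share 1 base at their ends. Ube2c lies at chr2:164769809-164769928 (+), Cdc20 at chr4:118437344-118437463 (-), Ccnb1 at chr13:100786487-100786606 (-), Plk1 at chr7:122159315-122159434 (+), Top2a at chr11:99024190-99024309 (-) and Cenpa at chr5:30666766-30666885 (+). Ung, a replication-phase gene that was lower in G2/M wells, lies at chr5:114130315-114130434 (+) and is shown for contrast.
Ube2c: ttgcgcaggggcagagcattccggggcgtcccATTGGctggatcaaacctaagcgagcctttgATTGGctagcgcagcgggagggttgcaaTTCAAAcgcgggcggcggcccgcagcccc
Cdc20: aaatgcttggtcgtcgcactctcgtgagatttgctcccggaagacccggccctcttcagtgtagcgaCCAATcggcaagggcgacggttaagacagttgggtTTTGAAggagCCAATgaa
Ccnb1: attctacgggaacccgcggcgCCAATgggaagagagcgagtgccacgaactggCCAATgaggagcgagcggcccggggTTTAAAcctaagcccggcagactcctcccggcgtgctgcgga
Plk1: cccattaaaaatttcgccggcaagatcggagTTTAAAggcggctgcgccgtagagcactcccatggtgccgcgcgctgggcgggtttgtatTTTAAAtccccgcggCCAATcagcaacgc
Top2a: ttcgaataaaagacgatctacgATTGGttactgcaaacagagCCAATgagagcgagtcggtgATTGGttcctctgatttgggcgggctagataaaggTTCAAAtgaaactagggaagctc
Cenpa: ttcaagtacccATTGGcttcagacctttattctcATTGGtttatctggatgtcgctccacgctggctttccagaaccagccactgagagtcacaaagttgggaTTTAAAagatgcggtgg
Ung: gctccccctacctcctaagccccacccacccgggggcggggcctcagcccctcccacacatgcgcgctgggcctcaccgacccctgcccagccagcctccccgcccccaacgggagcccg

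Of the 8 genes of the rule, 4 held TTTGAA or TTTAAA in this window and 7 held CCAAT, Nusap1 holding neither. The 73 other division genes of the lists used below are known mitotic genes that the rule did not use, and 61 of them (83.6%) matched the promoter table by symbol or identifier. TTTGAA or TTTAAA stood in 34.4% of those 61, against 8.21% of 7135 matched protein-coding genes tested and 13.5% of all 27025 genes of the table. CCAAT stood in 62.3% of the division genes, against 29.2% and 24.2%. Both kinds of element stood in 27.9%, against 2.31% and 2.94%. Among 28 matched genes of the S phase list, 57.1% held CCAAT, 7.14% held TTTGAA or TTTAAA, and 0 held both. These matches are descriptions of letters and not of binding.

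The genes that chose the wells are given as a description without a test. CPM values were the summed counts of a gene in an arm of a plate, scaled to a total of 1000000 gene counts. Ube2c stood at 184, 283 and 384 CPM in G2/M wells (lowest, median and highest plate) and at 10.2, 31.4 and 58.5 CPM in the remaining wells. Ccnb1, the cyclin that starts mitosis, stood at 61.4, 109 and 194 CPM against 4.62, 18.1 and 42.2 CPM. Cdc20 stood at 63.9, 85.4 and 124 CPM against 8.93, 16.3 and 25.3 CPM, and Plk1 at 50.6, 95.5 and 148 CPM against 3.46, 12.0 and 32.3 CPM. A Ube2c count was present in 309 of 408 G2/M wells and in 527 of 2319 remaining wells. The line between the arms is a range and not a gap. The lowest summed value inside was 2.90 to 9.40 counts per 10000 over the plates, and the first value outside was 2.80 to 9.38. Of the remaining wells, 795 had no count of any of the 8 genes. The call was thin in part, since 47 G2/M wells, all on LCE plates, held under 3 such counts and 8 of them held 1. At the other end, 48 wells held counts of all 8 genes and 76 of 7. Top2a, the marker of the label that the rule did not use, had a count in 354 of 408 G2/M wells (86.8%) and in 1697 of 2319 remaining wells (73.2%). Such shares rise with depth, and the median G2/M well held 1.16 to 1.54 times the gene counts of the median remaining well. Kit, which had lower CPM in G2/M wells, had a count in 80.4% and 79.4%.

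Division genes outside the rule rose together in the G2/M wells. Over the 8 plates, 64 of 72 tested division genes were higher, 0 were lower, and 63 of 72 were higher on 8 of 8 plates. Their median log2 difference, G2/M wells minus remaining wells, was 1.29, against -0.01 over all 10823 genes tested. The test was edgeR's quasi-likelihood fit on counts summed per plate and arm, with plate as a block and Benjamini-Hochberg adjustment over all tested genes. It called 458 genes higher (4.23%) and 306 lower (2.83%), 764 in all (7.06%), while DESeq2 called 354 higher and 126 lower. With no filter on low counts the split turned, to 399 higher and 675 lower. Top2a, which untangles DNA, stood at 461, 656 and 825 CPM in G2/M wells (lowest, median and highest plate) and at 139, 284 and 458 CPM in the remaining wells. The groups did not overlap, which held for 87 of all tested genes (0.804%). Its log2 difference was 1.16 ± 0.06 (SE, n = 8 plates, edgeR adjusted p = 3.0e-18). With wells chosen after every well was thinned to 1000 counts, a choice that shares 195 of its 408 wells, 61 of 72 division genes were still higher, with a median of 0.82.

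**Figure D1:**
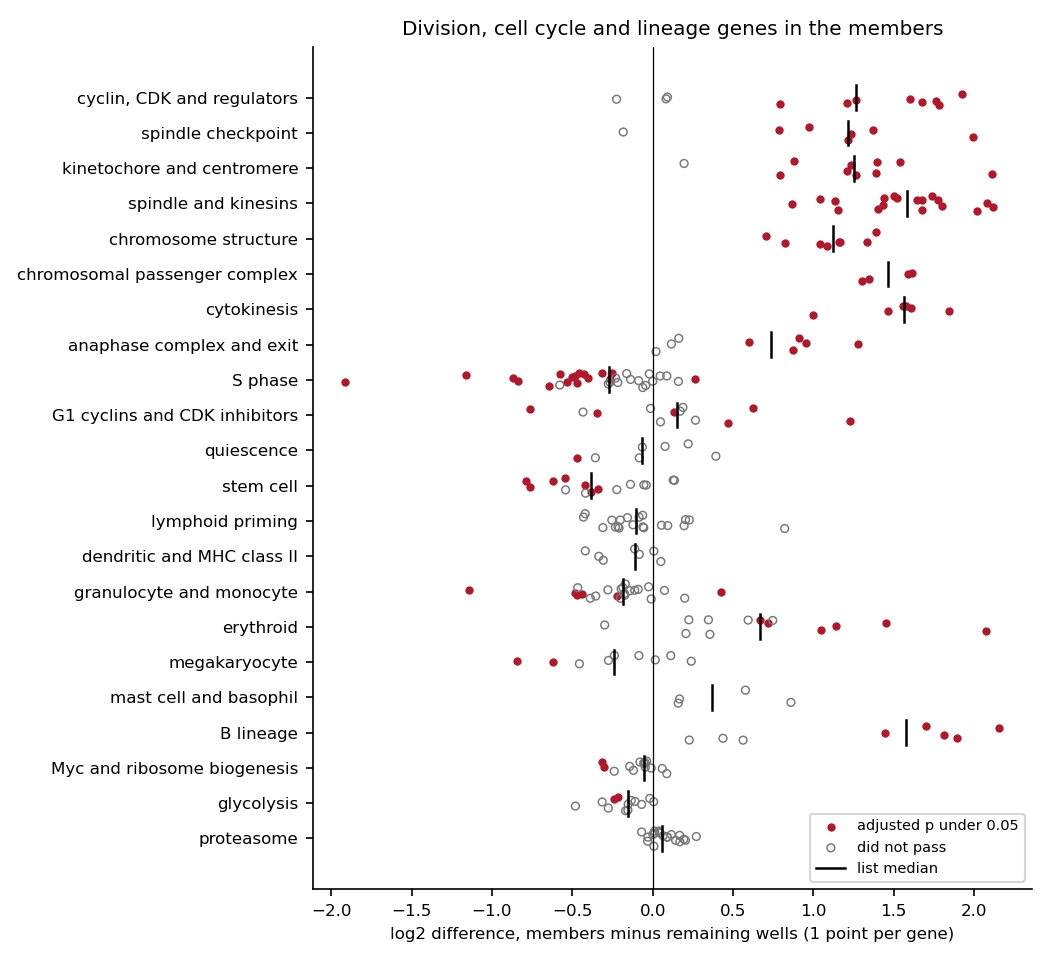
Log2 difference of each tested gene, G2/M wells minus remaining wells of the same plate (x axis), by gene list (rows). Each point is 1 gene, red where it passed edgeR's adjusted p of 0.05 and grey and open where it did not, and the bar is the list's median. The division lists sit between medians of 0.73 and 1.58, the stem cell list at -0.39 and the S phase list at -0.27.

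Regulators of the mitotic entry kinase were the first group. Of 11 tested cyclin, Cdk and regulator genes, 8 were higher and 0 lower, with a median log2 difference of 1.26. Ccna2, the cyclin of S phase and early G2, stood at 109, 175 and 216 CPM in G2/M wells and at 18.5, 55.4 and 90.8 CPM in the remaining wells. Every G2/M value of Ccna2 lay above every remaining value, and its log2 difference was 1.60 ± 0.11 (edgeR adjusted p = 5.9e-15). Cdk1, the catalytic partner of cyclin B, rose by 1.21 ± 0.08, from 50.9 to 104 CPM over the plates of remaining wells to 120 to 218 CPM. Ccnf, the F-box protein that targets other cycle proteins, rose by 1.92, and Cdc25b and Cdc25c, the phosphatases that switch Cdk1 on, by 1.78 and 1.76. Cks2, a Cdk-binding subunit, rose by 1.67. Pkmyt1, the kinase that holds Cdk1 inactive, had a log2 difference of 0.09 that did not pass (edgeR adjusted p = 0.82).

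Genes of the kinetochore and of the checkpoint that watches it were next. Of 10 kinetochore and centromere genes, 9 were higher and 0 lower, with a median of 1.25. Cenpa, the histone H3 variant that marks centromeres, stood at 141, 210 and 336 CPM in G2/M wells and at 30.5, 46.3 and 84.4 CPM in the remaining wells, with no overlap. Its log2 difference was 2.11 ± 0.08 (edgeR adjusted p = 2.1e-22). Sgo1 and Sgo2a, which protect cohesion at centromeres, rose by 1.54 and 1.40, and the kinetochore motor Cenpe by 1.39. Of 7 spindle checkpoint genes, 6 were higher, with a median of 1.21. Bub1b, the checkpoint protein BubR1, rose by 2.0 ± 0.14, and the kinases Bub1 and Ttk by 1.37 and 1.23. Zwint, which links Knl1 to the checkpoint, stood at 34.5 to 58.7 CPM against 42.1 to 66.4 CPM and did not pass (log2 difference -0.18, edgeR adjusted p = 0.48).

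All 18 tested genes of the spindle and its motor proteins were higher, with the highest median of the division lists at 1.58. Hmmr, which organises spindle microtubules, stood at 34.7, 110 and 171 CPM in G2/M wells and at 5.77, 23.4 and 50.2 CPM in the remaining wells, a log2 difference of 2.08 ± 0.15. Psrc1, Kif2c and Kif20a, a microtubule-binding protein, a depolymerising kinesin and a kinesin of the midzone, rose by 2.11, 2.02 and 1.8. All 4 genes of the chromosomal passenger complex, which corrects wrong attachments, were higher, with a median of 1.47. Its kinase Aurkb stood at 65.0, 81.9 and 161 CPM against 11, 28.0 and 50.2 CPM and rose by 1.59 ± 0.15, and its subunits Cdca8, Incenp and Birc5 rose by 1.61, 1.35 and 1.3.

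All 6 genes of cytokinesis, the splitting of the cell body, were higher, with a median of 1.57. Ect2, which activates RhoA at the cell's equator, rose by 1.84, the ring scaffold Anln by 1.61, the abscission protein Cep55 by 1.57 and the midzone kinesin Kif23 by 1.56. Of 8 genes of the anaphase-promoting complex and mitotic exit, 5 were higher and 0 lower, with the lowest median of these lists, 0.73. Espl1, the separase that cuts cohesin, stood at 26.2, 44.6 and 67.3 CPM against 7.51, 16.7 and 28.4 CPM and rose by 1.28 ± 0.18. Fzr1, which replaces Cdc20 after anaphase, rose by 0.95, its inhibitor Fbxo5 by 0.91 and the ubiquitin-conjugating enzyme Ube2s by 0.87.

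All 8 chromosome structure genes were higher, with a median of 1.12. Mki67, the Ki-67 protein that coats mitotic chromosomes, stood at 259, 442 and 565 CPM in G2/M wells and at 60.6, 175 and 262 CPM in the remaining wells. The highest remaining plate of Mki67 passed the lowest G2/M plate, but G2/M wells were higher within 8 of 8 plates, with a log2 difference of 1.33 ± 0.07. Hmgb2, a chromatin protein, rose by 1.39 ± 0.07 and the condensin subunit Ncapd2 by 1.16.

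Genes outside the lists are named for the largest rises on 8 of 8 plates at 20 CPM or more. Pif1, a DNA helicase, rose by 2.32, Pimreg, a protein of the dividing nucleus, by 2.29, Aspm, which holds spindle poles together, by 2.22, Arhgap19, which acts on RhoA, by 2.19, and Nek2, a centrosome kinase, by 2.12. Pimreg stood at 42.7, 61.1 and 76.2 CPM in G2/M wells and at 2.89, 10.7 and 19.9 CPM in the remaining wells. Gm10259, a processed pseudogene that may share counts with its parent gene, rose by 2.16. The alpha globin gene Hba-a2 also met that rule at 2.10, but it had counts in 37 G2/M wells, and 1 of them held 45% of its counts there.

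**Figure D2:**
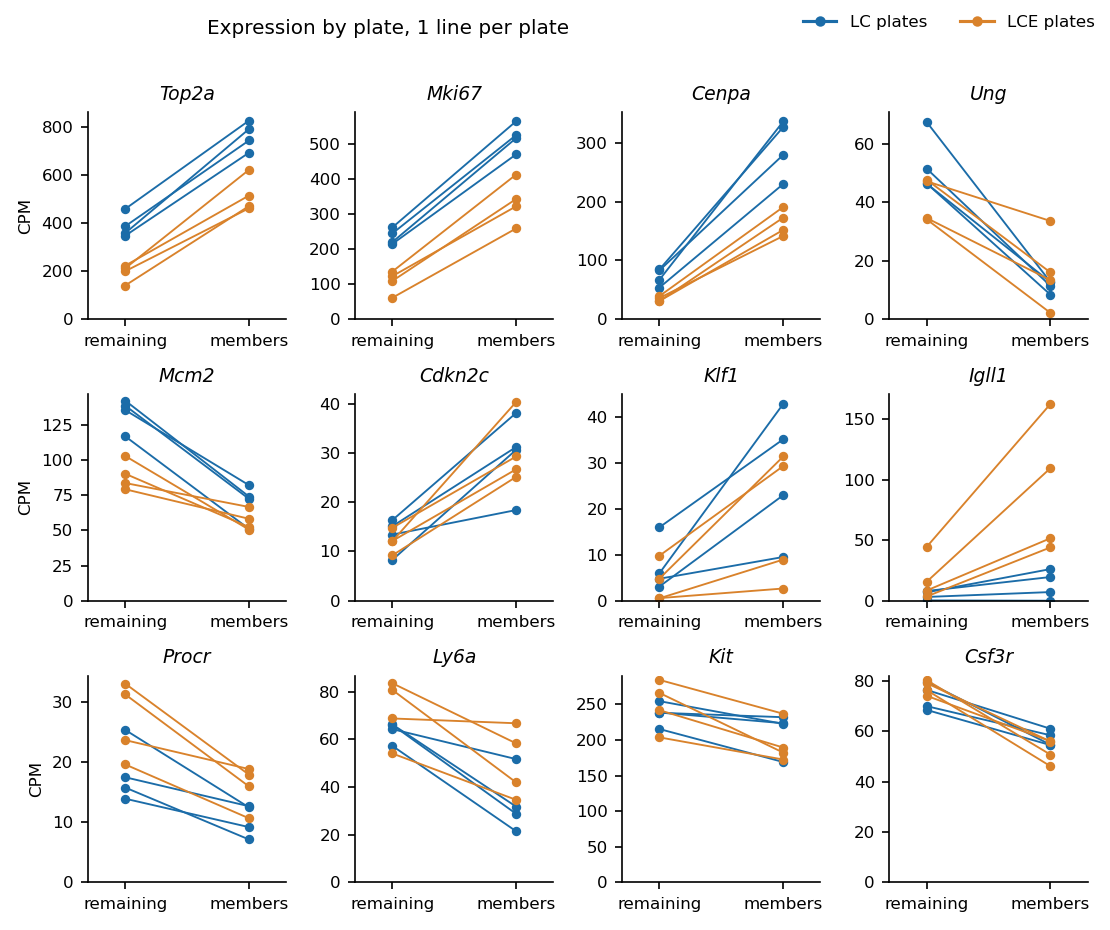
CPM of 12 genes in the remaining wells and in the G2/M wells (members), 1 line per plate, LC plates in blue and LCE plates in orange. Top2a, Mki67, Cenpa, Cdkn2c and Klf1 rise on 8 of 8 plates, Ung, Mcm2, Procr, Ly6a, Kit and Csf3r fall on 8 of 8, and Igll1 rises on 7.

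Many genes of DNA replication were lower. Of 32 tested S phase genes, 16 were lower and 1 higher, with a median log2 difference of -0.27. Ung, the uracil-DNA glycosylase of replicating cells, stood at 2.10, 12.7 and 33.6 CPM in G2/M wells and at 34.2, 46.9 and 67.6 CPM in the remaining wells. These groups did not overlap, and its log2 difference was -1.91 ± 0.19 (edgeR adjusted p = 6.5e-10). Mcm2, a subunit of the replicative helicase, stood at 50.6, 62.5 and 82.2 CPM against 79.3, 110 and 142 CPM, lower on 8 of 8 plates, with a log2 difference of -0.84 ± 0.09. Ccne2, the cyclin of S phase entry, and the transcription factor E2f1 had log2 differences of -1.16 and -0.87, both lower with edgeR adjusted p of 0.0027 and 0.00038. Rrm1, the large subunit of ribonucleotide reductase, was the 1 gene called higher, at 0.26, and was not called without LC188, LC190, LCE409, LCE407 or LCE410 (0.23 to 0.24). With wells chosen after thinning, 5 of the 32 were lower and 0 higher, and neither Ccne2 nor E2f1 was among those called.

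G1 regulators moved both ways. Of 12 tested, 4 were higher and 2 lower, with 2 higher without LCE409 or LCE407. Cdkn2c, the Cdk4 and Cdk6 inhibitor p18, stood at 18.4, 30 and 40.4 CPM in G2/M wells and at 8.28, 12.8 and 16.4 CPM in the remaining wells, without overlap, and rose by 1.23 ± 0.19 (edgeR adjusted p = 6.0e-06). The related inhibitor Cdkn2d (p19) had a log2 difference of 0.62 ± 0.18 (edgeR adjusted p = 0.028), a call that was lost without LC187, LCE409, LCE407, LCE408 or LCE410 (0.50 to 0.62). Of the D cyclins, which carry growth signals into G1, Ccnd1 was lower by a log2 difference of -0.76 and Ccnd2 by -0.35, at 254, 274 and 331 CPM against 305, 351 and 427 CPM. Ccnd3 was higher by 0.47, but by 0.07 and not called once 168 wells with RNA of other lineages (below) were left out. Of 7 tested quiescence genes, Txnip, which curbs glucose uptake, was the 1 that changed, with a log2 difference of -0.47 ± 0.06 on 8 of 8 plates. The Cdk inhibitor p57, Cdkn1c, was too low to test, at 0 to 9.08 CPM against 1.55 to 8.40 CPM.

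Counts of genes for the histones that package new DNA rose, and they rose more on LCE plates. The method primes polyadenylated RNA, so histone RNA without such a tail may be missed. Of 30 tested replication-dependent histone genes, 23 were higher and 0 lower, with a median of 1.02. Hist1h2ap stood at 2390, 3352 and 4638 CPM in G2/M wells and at 886, 1318 and 1791 CPM in the remaining wells, without overlap. A test of the difference between plate sets called 36 of 10823 genes (0.333%), 35 of them with the larger log2 difference on LCE plates. It called 12 of the 30 histone genes, with a median of 0.70 on LC and 1.78 on LCE plates. Hist1h2ap, a gene named here after its values were seen, rose by 0.75 on LC and by 1.99 on LCE plates. H2A genes are nearly identical to one another, so their counts could be shared, and their values are uncertain one by one.

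The plate sets also differed for genes of division and replication. Of 72 division genes, 5 differed between the sets, among them Ccna2 (1.33 on LC, 2.16 on LCE), Top2a (0.99 and 1.42) and Mki67 (1.15 and 1.65), and the list's median was 1.15 on LC and 1.58 on LCE plates. Of 32 S phase genes, 4 differed. Named after their values were seen, Tyms, which makes thymidylate, had log2 differences of -0.60 on LC and 0.62 on LCE plates, and Rrm2, the small subunit of ribonucleotide reductase, of -0.40 and 0.64. Uhrf1, which helps copy DNA methylation, had -0.96 and 0.04, and Pcna, the sliding clamp of the replication fork, -0.50 and 0.03. On LC plates fitted alone, 20 of 32 S phase genes were lower and 0 higher (median -0.51). On LCE plates alone, 4 of 31 were lower and 4 higher (median -0.03). Summed S phase counts were also scaled as in the rule. In the median G2/M well they stood at 24.2 to 27.0 on LC plates and at 17.9 to 23.8 on LCE plates. In the median remaining well they stood at 32.4 to 36.6 on LC and at 16.6 to 23.3 on LCE plates. These sums thus differed more between the sets in the remaining wells than in the G2/M wells, which was not tested. The 47 G2/M wells with under 3 rule counts were all on LCE plates, and LCE plates had another panel. Their part in the differences between the plate sets was not tested, and panel, sort and library cannot be told apart.

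**Figure D3:**
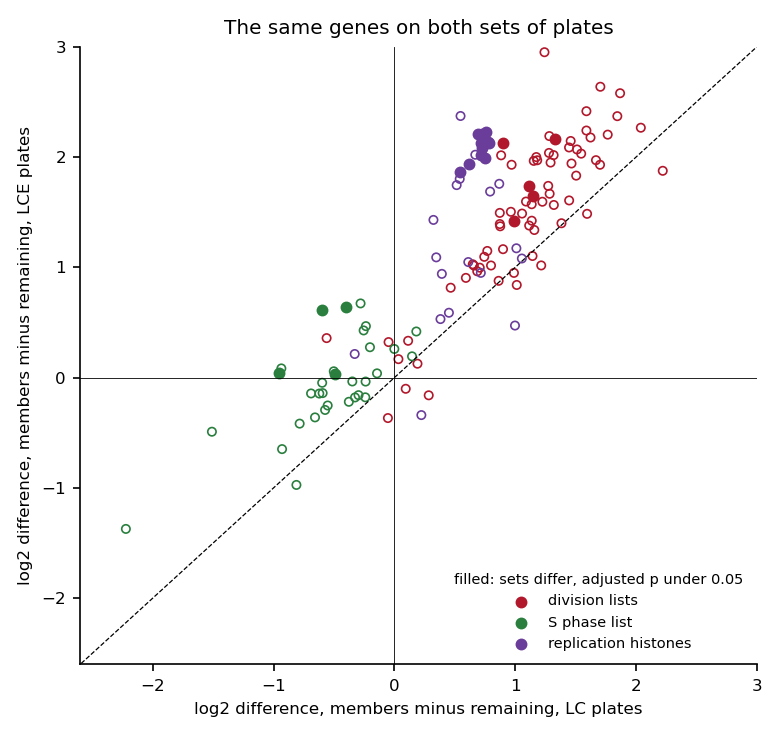
Log2 difference between G2/M and remaining wells on the 4 LC plates (x axis) against that on the 4 LCE plates (y axis), 1 point per gene of the division lists (red), the S phase list (green) and the replication histones (purple). Filled points are genes for which the sets differed at an edgeR adjusted p under 0.05: 5 of 72, 4 of 32 and 12 of 30.

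Of 15 tested stem cell genes, 7 were lower in the G2/M wells and 0 higher, with a median log2 difference of -0.39. DESeq2 called 3 of 19 lower, and edgeR 4 of 16 on LC plates alone and 2 of 15 on LCE plates alone. The summed list stood at 1446, 1600 and 1712 CPM in G2/M wells (lowest, median and highest plate) and at 1767, 1860 and 1980 CPM in the remaining wells, so the arms did not overlap. Procr, the EPCR receptor of the most dormant stem cells, stood at 7.15, 12.6 and 18.9 CPM against 13.9, 21.7 and 33.1 CPM, lower on 8 of 8 plates, with a log2 difference of -0.76 ± 0.20 (edgeR adjusted p = 0.0093). The stem cell transcription factor Hlf stood at 122, 215 and 365 CPM against 166, 274 and 403 CPM, with a log2 difference of -0.39 ± 0.06 (edgeR adjusted p = 1.8e-05). Meis1, a Hox cofactor, and Ifitm1 had log2 differences of -0.42 and -0.34. Of the wells, 19 of 408 G2/M wells (4.66%) lay in the top 10% of their plate for this list, and on none of the 8 plates was their share of that top 10% above 15%.

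The count of stem cell genes called lower depended on how the wells were chosen. With wells chosen after thinning, 0 of 15 genes passed and the median was -0.17, while the median of the division genes also shrank, to 0.82. Ties in that choice were broken at random, as given above. With only 4 of the 8 rule genes, 3 passed with each set of 4. With 10% of wells taken 4 of 15 were lower (median -0.35), and without G2/M wells under 3 rule counts 8 of 15 (median -0.44). Under each of these choices 0 were higher and the median was negative. Pdzk1ip1, a stem cell membrane protein, had a log2 difference of -0.79, or -0.67 and not called without LCE409. Mecom, a stem cell transcription factor, had -0.54 (-0.42 to -0.53 and not called without LC187, LCE407, LCE408 or LCE410). Mycn had -0.62 (-0.49 and -0.57, not called, without LC190 and LCE408).

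Several erythroid genes were higher. Of 13 tested genes 6 were higher and 0 lower, with a median of 0.67. The summed list stood at 552, 956 and 1531 CPM in G2/M wells and at 514, 751 and 920 CPM in the remaining wells. It was higher on 5 of 8 plates. Klf1, the master regulator of red cell genes, stood at 2.66, 26.2 and 42.9 CPM in G2/M wells and at 0.525, 4.81 and 16.0 CPM in the remaining wells, and was higher on 8 of 8 plates. Its log2 difference was 2.07 ± 0.27 (edgeR adjusted p = 2.3e-07), and its counts came from 29 G2/M and 84 remaining wells. Ermap, a red cell surface protein, rose by 1.45, the water channel Aqp1 by 1.14 and the carbonic anhydrase Car1 by 1.05. The haem synthesis enzyme Cpox rose by 0.71. The count of higher genes ran from 4 without LC190 to 9 without LCE410, and 1 gene was called lower without LC189. Gata1, the erythroid and megakaryocyte factor, stood at 0, 11.2 and 57.9 CPM against 1.58, 9.47 and 14.3 CPM and did not pass (edgeR adjusted p = 0.13). Fitted alone, 9 of 18 genes were higher on LC plates and 0 of 8 on LCE plates, where fewer could be tested. The difference between sets was tested for single genes and called none of these 6. With 10% of wells taken, 0 were higher and 1 was lower, Klf1 was at 1.13 (edgeR adjusted p = 0.12) and Car1 at -0.19. With wells chosen by Cdc20, Ccnb2, Plk1 and Cenpf 1 of 13 was higher, and with the other 4 rule genes 7 of 13. Of the Car1 counts in G2/M wells, 1 well held 19.7%. By the summed list, 43 of 408 G2/M wells (10.5%) lay in the top 10% of their plate. Their share of that top 10% was above 15% on 2 of 8 plates.

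B lineage genes were higher, and they came from few wells. Of 8 tested genes 5 were higher and 0 lower, with a median of 1.57. Igll1, the surrogate light chain of pro-B cells, stood at 0, 35.1 and 162 CPM in G2/M wells and at 0.240, 7.45 and 44.4 CPM in the remaining wells. It was higher on 7 of 8 plates, with a log2 difference of 2.16 ± 0.22 (edgeR adjusted p = 9.2e-10). Vpreb1 and Vpreb3 of the same complex rose by 1.89 and 1.81, the B cell factor Ebf1 by 1.70 and the receptor chain Cd79a by 1.44. Wells with at least 5 counts of the list numbered 120, of which 35 were G2/M wells. That is 8.58% of G2/M wells and 3.67% of remaining wells. The cutoff was not scaled to depth, and the median G2/M well held 1.16 to 1.54 times the gene counts of the median remaining well. Without these wells and those rich in C1q, plasma cell or neutrophil RNA (168 wells, 45 of them G2/M), the summed list stood at 11.5, 51.4 and 109 CPM in G2/M wells and at 19.3, 61.8 and 142 CPM in the remaining wells, and 0 of the 1 gene still tested passed. The B lineage list itself chose 120 of these wells, so its lower sums and lost calls follow from the choice. Without the 168 wells, 64 of 72 division genes were still higher (median 1.27), 5 of 15 stem cell genes were lower and 7 of 13 erythroid genes were higher. The LSK gate leaves out lineage-positive cells, but the sort records of the LCE plates name the gate SK. Fitted alone, 3 of 8 B lineage genes were higher on LC plates (median 1.15) and 6 of 8 on LCE plates (median 1.68). The source of the B lineage RNA was not tested. The sum of the lists for macrophages and plasma cells was 21 to 79.5 and 6.90 to 74.0 CPM in G2/M wells against 25.2 to 79.1 and 14.4 to 129 CPM, and Ncr1 of the T and NK list was at 0 in both arms.

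Of 23 tested granulocyte and monocyte genes, 5 were lower and 1 higher, with a median of -0.19, where 2.83% of all tested genes were lower. DESeq2 called 3 of 24. Csf3r, the G-CSF receptor, stood at 46.1, 55.3 and 61.0 CPM in G2/M wells and at 68.4, 76.3 and 80.3 CPM in the remaining wells, without overlap, with a log2 difference of -0.44 ± 0.10 (edgeR adjusted p = 0.0036). Ly6c2, a monocyte surface protein that may share counts with Ly6c1, stood at 0, 17.7 and 129 CPM against 2.63, 70.5 and 200 CPM, with a log2 difference of -1.14. Gstm1, a detoxifying enzyme, and the granule protease Elane had -0.47 and -0.48. The call for Elane was lost without LC189, LC190, LCE409, LCE408 or LCE410 (-0.32 to -0.48). The 1 gene called higher was Clec12a, an inhibitory lectin of myeloid cells, at 0.42, and it was called without LC190 or LCE408 but not without any 1 of the other 6 plates (0.37 to 0.43). Without LC189 or LC190, 3 genes of the list were lower. After thinning the choice of wells, 1 of the 23 was lower and 0 higher, and Csf3r (-0.38) and Ly6c2 (-0.43) were not called.

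Of 20 tested lymphoid priming genes 0 passed in edgeR, with a median of -0.10. At an unadjusted p under 0.05, 8 of the 20 and 1931 of all 10823 genes passed, and DESeq2 called 0. With 1 plate left out, 0 to 2 were higher (2 without LCE407) and 0 or 1 lower (1 without LC190). Flt3, the receptor of lymphoid-primed progenitors, stood at 78.2, 167 and 267 CPM in G2/M wells against 120, 195 and 257 CPM (log2 difference -0.21, edgeR adjusted p = 0.099), and was called lower without LC190 (-0.27). Il7r stood at 0, 11.4 and 24 CPM against 0.240, 8.48 and 11 CPM (log2 difference 0.82, edgeR adjusted p = 0.098). Of the megakaryocyte list, the platelet chemokine Pf4 was lower, with a log2 difference of -0.84, and was not called without LC190, LCE409 or LCE407 (-0.78 to -0.84). Ppbp, another platelet chemokine, was at 0 in G2/M wells. Of 4 mast cell and 7 dendritic cell genes 0 passed in edgeR or DESeq2, and 2 of each list were under an unadjusted p of 0.05. With 1 plate left out, 3 dendritic genes were lower without LC190 and 1 without LC187, and 1 mast cell gene was higher without LC187 or LCE409.

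Lists for growth and housekeeping are given beside the 2.83% of all tested genes that were lower. Of 14 tested Myc and ribosome biogenesis genes 2 were lower, Myc itself at 109, 153 and 191 CPM against 174, 191 and 231 CPM with a log2 difference of -0.31, and Nolc1, which was not called without LC188 (-0.23). Of 13 glycolysis genes 2 were lower, Ldha (-0.22) and Pgam1 (-0.24), the latter not called without LC187, LC188, LCE409, LCE407 or LCE408 (-0.20 to -0.24). Of 20 proteasome genes 0 passed in edgeR or DESeq2 (median 0.06, 3 under an unadjusted p of 0.05), and 1 was higher without LCE407. Of 89 cytosolic ribosomal protein genes 19 were lower and 1 higher, with a median of -0.07. Ifi27l2a, an interferon-induced gene, rose by 0.94 and was the 1 of 7 interferon genes to pass, but stood at 0.02 after thinning the choice of wells. Fos and Junb, stress-responsive early genes, had log2 differences of -0.81 and -0.73. Junb was not called without LC190 (-0.60), and Fos was too low to test without any 1 of the LC plates.

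The G2/M wells were next set against the remaining wells richest in S phase RNA. These were the remaining wells of each plate in the upper tercile of the summed S phase list, 775 wells, and the S phase list is therefore left out. Here 427 of 9158 tested genes were higher (4.66%) and 399 lower (4.36%), 826 in all (9.02%), while DESeq2 called 239 higher and 89 lower, and edgeR with no filter on low counts 381 and 560. Of 72 division genes 64 were higher and 1 lower, with a median of 1.12. The 1 lower gene was Pkmyt1 (-0.50), not called without LC188, LC190 or LCE410 (-0.34 to -0.46). Aspm rose by 2.66, Prr11, a late cell cycle protein, by 2.39, and Kpna2, a nuclear import carrier, by 2.08. Of 24 replication histone genes 22 were higher (median 0.85).

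Against these cells no stem cell gene passed. Of 14 tested, 0 passed in either direction in edgeR or DESeq2, 2 were under an unadjusted p of 0.05, the median was -0.08, and the summed list was 1446 to 1712 CPM against 1559 to 1764 CPM. Procr had a log2 difference of -0.28 (edgeR adjusted p = 0.59). Both comparisons share the G2/M wells, so they are given side by side and not set against each other. Of 12 glycolysis genes 8 were lower and 0 higher, with a median of -0.29, among them Pgam1 (-0.44), Ldha (-0.43) and Tpi1 (-0.35), enzymes of the pathway. With 1 plate left out, 6 to 8 were lower, and DESeq2 called 3 of 13. Of 14 Myc and ribosome biogenesis genes 5 were lower (median -0.21), 4 to 7 with 1 plate left out, and DESeq2 called 2. Of 11 G1 genes, Cdkn2d and Cdkn2c were higher by 1.22 and 0.93, and Ccnd1 was lower at -1.10. Cd74 and H2-Eb1, genes of peptide presentation to T cells, were higher by 1.08 and 1.0, the 2 called of 7 genes of their list (4 without LC188). Of their counts in G2/M wells, 1 well held 19.3% for Cd74 and 27.2% for H2-Eb1. The B lineage list again had 5 of 6 genes higher. Of 22 granulocyte and monocyte genes 6 were lower, or 4 to 9 with 1 plate left out (9 without LC187, 4 without LC189, LC190, LCE409 or LCE408), and DESeq2 called 0 of 23. Of 11 erythroid genes 4 were higher, among them Ermap (1.19) and Car1 (1.23, or 0.76 without LC188), with 2 higher without LC188, LC190 or LCE408.

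The sorted proteins were compared by rank, as the probability that a G2/M well was brighter than a remaining well of its plate (0.5 where neither is). Fluorescence was known for 407 of the 408 wells. cKit, the stem cell factor receptor, was brighter on 8 of 8 plates. Its median in G2/M wells was 5928 to 7926 on LC plates and 5288 to 7067 on LCE plates, against 4504 to 5984 and 4843 to 5434 in the remaining wells, in the sorter's linear units. The probability was 0.613 ± 0.056 (SD, n = 8 plates, exact two-sided sign-flip permutation p = 0.0078, adjusted over 12 measures p = 0.031). It was 0.653 on LC and 0.574 on LCE plates, and 52.3% of G2/M wells were in the brightest tercile of their plate. Without any 1 of the LCE plates, cKit, CD150 and IL7R were not called (adjusted p = 0.0625, exact permutation, n = 7 plates). Each was above 0.5 on every plate, so the exact permutation p was then 0.016, the smallest that 7 plates allow. These calls were lost through the adjustment over 12 measures, and cKit stood at 0.611 to 0.626 without 1 LCE plate. Without 1 LC plate the exact permutation p for cKit was also 0.016. The adjustment then ran over fewer measures, only those recorded on all 8 plates (adjusted p = 0.027 to 0.036). Calls without an LC plate and without an LCE plate are therefore not alike, and no conclusion is drawn from that contrast. Kit RNA went the other way, at 169, 206 and 237 CPM in G2/M wells against 204, 240 and 285 CPM, with a log2 difference of -0.24 ± 0.06 (edgeR adjusted p = 0.0073), or -0.17 and not called without wells of other lineages.

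CD150 and IL7R were also brighter on 8 of 8 plates. CD150, a receptor of long-term stem cells, had a probability of 0.573 ± 0.029 and IL7R, the interleukin-7 receptor, of 0.575 ± 0.046 (both exact permutation p = 0.0078, adjusted p = 0.031, n = 8 plates). The ratio of medians ran from 1.08 to 1.60 for CD150 and from 1.0 to 1.71 for IL7R over the plates. Both highest ratios were on LC187 and came from low medians, 182 against 114 units for CD150 and 28.1 against 16.5 for IL7R. IL7R was similarly low on LC188 and on LC189 (15.1 against 12.5). It stood at 273 against 205 on LC190 and at 284 to 351 against 254 to 285 on the LCE plates. Negative values occur on this scale, so ratios of such low medians are uncertain. Slamf1, the gene of CD150, was too low to test, at 0 to 6.29 CPM against 1.16 to 4.55 CPM. With wells chosen after thinning, cKit (0.541) and CD150 (0.543) were no longer called. IL7R was at 0.552 and no longer called without wells of other lineages. Sca1, a marker of the gate, was dimmer on 6 of 8 plates, with a probability of 0.459 ± 0.039 (exact permutation p = 0.031, adjusted p = 0.094). Its gene Ly6a fell, from 54.1, 66.1 and 83.5 CPM in the remaining wells to 21.4, 38.3 and 66.7 CPM, lower on 8 of 8 plates with a log2 difference of -0.75 ± 0.13 (edgeR adjusted p = 6.6e-05). After thinning the choice of wells, Ly6a stood at -0.29 and was not called. CD135, the Flt3 protein, stood at 0.524 ± 0.051, with LC187 at 0.406 and the other plates between 0.513 and 0.564. It was called brighter without LC187 (0.541, adjusted p = 0.027, exact permutation). LC187 was the 1 plate below 0.5, so leaving it out fixes the exact p at the smallest that 7 plates allow. No conclusion is drawn from that call. Dach1-GFP stood at 0.543 ± 0.063, 0.593 on LC and 0.493 on LCE plates, and Dach1 RNA at 8.01, 33.8 and 56.6 CPM against 13.3, 27.4 and 43.4 CPM (log2 difference 0.10, edgeR adjusted p = 0.81). CD11b stood at 0.530 ± 0.042. Its gene Itgam had a log2 difference of -0.89, not called without LC190 (-0.64).

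Scatter and 3 more proteins were recorded on the 4 LCE plates, where the smallest p an exact test allows is 0.125. Forward scatter, which rises with cell size, was higher on 4 of 4 plates at 0.670 ± 0.055, and 56.4% of G2/M wells lay in the top tercile. Its median was 143000 to 167000 in G2/M wells against 131000 to 133000 in the remaining wells. Side scatter stood at 0.625 ± 0.036, CD48, a marker of committed progenitors, at 0.595 ± 0.030, CD16/32 at 0.565 ± 0.069 and PIR-A at 0.549 ± 0.064. Forward scatter moved with the other values. Within terciles of forward scatter, cKit on these plates was at 0.539 (0.574 without that step) and IL7R at 0.567 (0.585 without it). CD150 was then at 0.536, CD48 at 0.543 and side scatter at 0.572. The part of forward scatter in the brighter stain was not tested beyond that. When the comparison wells were those rich in S phase RNA, cKit stood at 0.567 and CD150 at 0.527 over the 8 plates, neither called, and CD48 at 0.465 and forward scatter at 0.534 on the LCE plates.

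**Figure D4:**
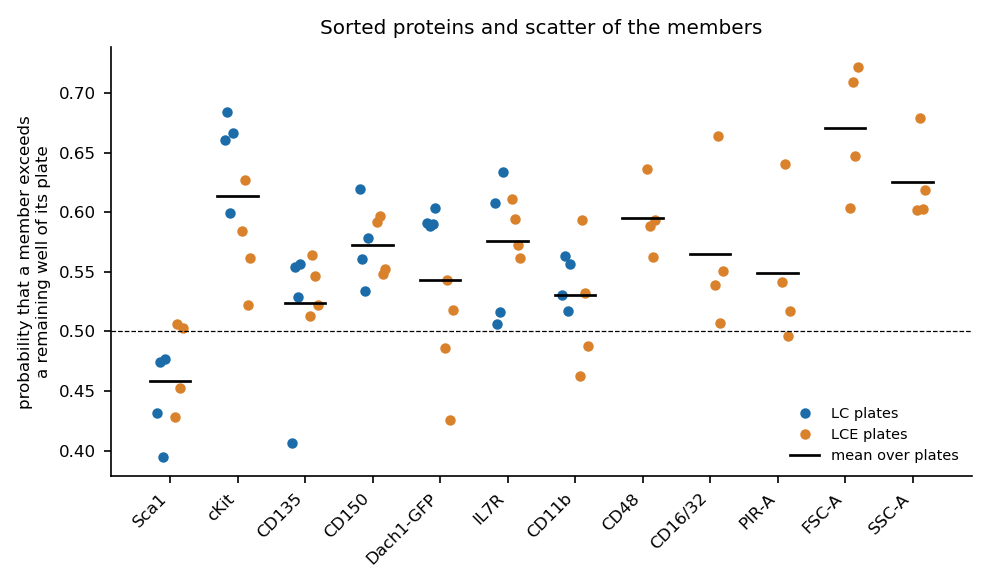
Probability that a G2/M well had a higher sorter value than a remaining well of its plate (y axis) for 12 measures (x axis), 1 point per plate (LC blue, LCE orange) and the mean as a bar. The dashed line at 0.5 marks no difference, and cKit, CD150 and IL7R lie above it on 8 of 8 plates, and FSC-A, SSC-A, CD48 and CD16/32 on 4 of 4.

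Classical surface gates were set on the LCE plates as a description, with CD135 split at the plate's median and CD48 and CD150 by outer terciles. G2/M wells made 12.3% of CD135-low CD48-low CD150-high wells (13 of 106), the pattern of long-term stem cells, and 9.70% of CD135-low CD48-low CD150-low wells (13 of 134). They made 20.3% of CD135-low CD48-high CD150-high wells (24 of 118), 21.7% of CD135-low CD48-high CD150-low wells (5 of 23) and 16.1% of CD135-high wells (109 of 676). Over plates the first gate ran from 4.55% to 19.4% and the CD48-high CD150-high gate from 17.1% to 27.6%. The plate ranges of these 2 gates overlap, and no test was made. The terciles come from all sorted wells and are not the borders of a diagnostic stain.

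RNA counts per well were higher in G2/M wells. The median G2/M well had 6895 to 19420 gene counts over the plates and the median remaining well 5539 to 12639, a ratio of 1.16 to 1.54 that was above 1 on 8 of 8 plates. Gene counts are the denominator of the rule, so this is a description. With wells chosen after every well was thinned to 1000 counts, the total had no part in the choice. The ratio of full counts was then 1.18 (1.01 to 1.36 over plates, higher on 8 of 8, exact two-sided sign-flip permutation p = 0.0078, the smallest that 8 plates allow). Spike-in RNA, present on the 4 LC plates, was 427 to 652 counts in the median G2/M well and 447 to 664 in the median remaining well. Gene counts per spike-in count were 1.46 times those of the remaining wells by the rule (1.40 to 1.55), and 1.24 times after thinning (1.03 to 1.36, higher on 4 of 4 plates, exact permutation p = 0.125, the smallest possible). At a fixed 3000 counts the median well had 1626 to 1698 genes against 1593 to 1647, and mitochondrial RNA made 3.77% to 6.10% of counts against 4.09% to 6.34%.

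**Figure D5:**
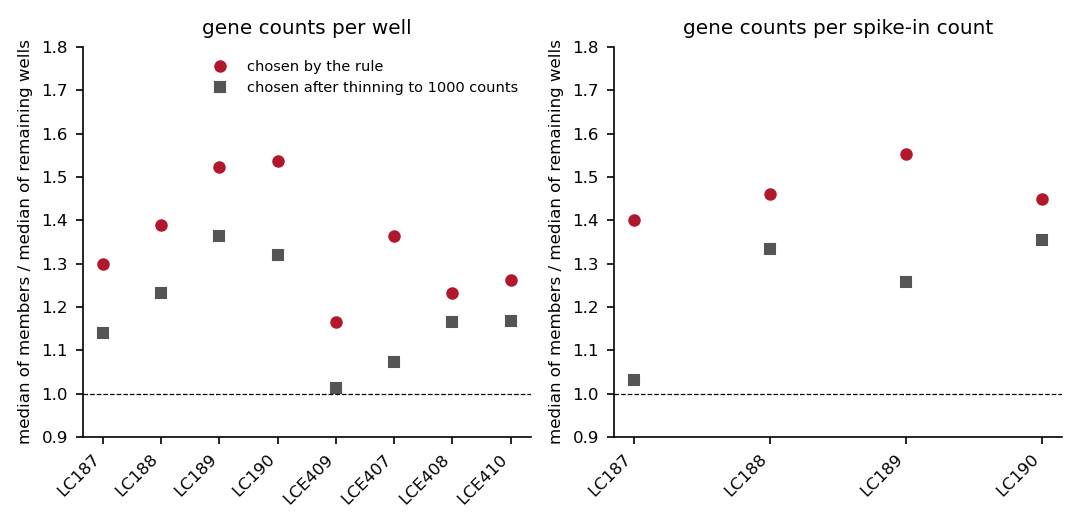
Ratio of the median in G2/M wells (members) to the median in remaining wells (y axis) by plate (x axis), for gene counts per well on 8 plates (left) and gene counts per spike-in count on the 4 LC plates (right). Red circles are wells chosen by the rule and grey squares wells chosen after thinning to 1000 counts, and the dashed line marks equal medians. All points lie above 1, at 1.16 to 1.54 by the rule and 1.01 to 1.36 after thinning for gene counts.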

How the data were processed

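In CEL-seq2, polyadenylated RNA is reverse transcribed with primers that carry a barcode for the well and a molecular identifier, pooled and amplified by transcription. The authors deposited raw counts per gene and well, 383 wells for each of 8 plates (all 383 barcodes are used on every plate), per the file headers. The second deposited value was the intensity of fluorescence and scatter for every sorted cell, in linear units per the file headers, in which negative values occur. The submitters' processing notes name GRCh38, a human build, while the gene identifiers are mouse, so no coordinates were taken from the files. For aligner, counter, strand and molecular identifiers the handling is not given in the sources used here, so counts may be reads or molecules. Symbols matched 27249 of 27318 identifiers. 4 further columns of sorter values were not used.

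Of 3064 wells, 2727 passed 1000 gene counts and 500 genes; the deepest well dropped held 879. Spike-in rows stayed out of totals. G2/M wells held 374763 to 1025388 gene counts per plate and remaining wells 1731640 to 4171213. 1 cell was sorted per well, and no doublet caller was run. Counts were summed per plate and arm and tested by quasi-likelihood in edgeR 4.0.16 (R 4.3.3) after filterByExpr and TMM scaling, with plate as block because both arms come from 1 plate, and Benjamini-Hochberg adjustment over all tested genes at 0.05. The 8 rule genes were left out of the test. DESeq2 1.42.0 was an alternative. Spread is the SD over plates or the SE of the fit. Sorter values used numpy 2.4.6, pandas 2.3.3 and scipy 1.17.1 in Python 3.11.15.

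Members and gene lists were chosen with earlier results of these data known, so list counts stand beside those of all genes and carry no test. Named were the rule genes, Top2a, genes of sorted proteins, the 10 genes rising and falling most per comparison (same sign on 8 plates, at least 20 CPM), and up to 4 called genes per list. Ccna2, Ccnd2, Cdk1, Cdkn1c, Clec12a, Cpox, Gata1, Hist1h2ap, Hlf, Meis1, Ncr1, Pcna, Pkmyt1, Ppbp, Rrm1, Rrm2, Tyms, Uhrf1 and Zwint were named after their values were seen. Alternatives were another tool, scaling, filter, member share, rule genes, depth, plate set and each plate left out. Promoter windows came from the RefSeq table.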

Additional observations from a re-analysis of the deposited data

Results flagged for a closer look

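Of 127 genes and 14 well measures checked over the 8 plates, 9 had 1 plate far from the others, and chance alone puts about 1 in 20 there. Values are log2 ratios of CPM, G2/M wells over remaining wells. Ccnf stood at 2.87 on LCE408 and 1.51 to 2.04 elsewhere, and Cdc25c at 2.73 on the same plate and 1.20 to 1.92 elsewhere. Pf4 stood at -3.51 on LCE408 (others -1.02 to 0.13). C1qc, a macrophage gene, stood at -3.0 on LCE409 (others -1.12 to 0.32), and Ldha at -0.65 on that plate (others -0.26 to 0.05). Jchain, a plasma cell gene, stood at 1.87 on LCE410 (others -1.57 to 0). Vpreb1 and Vpreb3 stood at -1.14 and -0.57 on LC190 and at 1.05 to 2.99 and 1.26 to 2.69 on the others. The CD135 probability stood at 0.406 on LC187 and at 0.513 to 0.564 on the others.

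For 5 of the genes named by rule the log2 difference was tested to be larger on LCE than on LC plates: by 1.23 for Birc5 (0.90 on LC, 2.13 on LCE), 0.63 for Hmgb2 (1.12 and 1.74), 0.86 for the immunoglobulin gene Ighm (-0.67 and 0.19), 0.50 for Mki67 (1.15 and 1.65) and 0.43 for Top2a (0.99 and 1.42). Ccna2, Hist1h2ap, Tyms, Rrm2, Uhrf1 and Pcna, named after their values were seen, differed too. The cause was not tested.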

How the results depend on the processing

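The count of changed genes between G2/M and remaining wells (764) was 480 with DESeq2, 217 with no replicate block, 432 on LC and 497 on LCE plates alone, 301 with wells thinned to 3000 counts, 481 with wells chosen by Cdc20, Ccnb2, Plk1 and Cenpf, and 269 with wells chosen after thinning. Leaving out 1 plate gave 616 to 685. Against wells rich in S phase RNA (826) it was 328 with DESeq2, 177 with no replicate block, 475 on LC, 305 on LCE plates and 200 with thinned wells, and 636 to 754 with 1 plate out. Over 3512 values of single named genes under the alternatives, 3204 kept direction and side of the threshold, 296 lost the call, 10 gained it and 2 reversed: Car1 with 10% of wells taken (-0.19, edgeR adjusted p = 0.82) and Jchain without other lineages (0.012, edgeR adjusted p = 0.99). The causes were not tested.

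With 1 plate left out the probability was 0.603 to 0.626 for cKit, 0.566 to 0.578 for CD150 and 0.567 to 0.585 for IL7R, none called without any 1 LCE plate, and 0.518 to 0.541 for CD135, called without LC187. Sca1 was called with wells chosen after thinning (0.473), with 10% (0.446) or 20% (0.449) of wells, and without wells under 3 rule counts (0.436). cKit was not called after thinning (0.541) or against S phase wells (0.567), CD150 likewise (0.543 and 0.527), and IL7R with 20% of wells (0.558), without other lineages (0.552) and against S phase wells (0.555). On the LCE plates CD48 moved to 0.558 after thinning, 0.632 with 10%, 0.652 without wells under 3 counts and 0.465 against S phase wells; FSC-A to 0.601, 0.734 (0.614 with 20%), 0.767 and 0.534; SSC-A to 0.568, 0.666, 0.697 and 0.505. Within forward scatter terciles cKit was 0.539, CD150 0.536, IL7R 0.567, CD48 0.543, SSC-A 0.572 and Dach1-GFP 0.473. Wells on the LCE plates held few rule counts, which limits who is chosen there.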
